A study of Mus musculus with 10 samples.

Results

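Respiratory complex I is the NADH dehydrogenase of the mitochondrial inner membrane. The genes described here are the nuclear-encoded subunit genes that carry the Ndufa, Ndufab, Ndufb, Ndufc, Ndufs and Ndufv symbols followed by a number, and they were taken from the table by symbol alone, with assembly factors left out. This rule found 38 of the 18398 genes. Colon RNA from wild-type (WT) mice was sequenced in 10 samples, 5 given a normal diet and 5 given a pro-inflammatory diet, and the comparison asks which genes differ between the diets. Strain, age, sex, the content of the diet and the length of feeding are not given in the sources used here. Nor do the labels say that each sample came from its own mouse, so p-values speak only to how far these samples scatter, part of which may be technical. Libraries are named by diet and the number in their title.

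Complex I takes electrons from NADH and passes them along a chain of iron-sulfur clusters to ubiquinone, and couples this transfer to proton pumping across the inner membrane. It has an L shape. The matrix arm holds the NADH site, the flavin and the clusters, and the membrane arm holds the pumps, whose core proteins are encoded in mitochondrial DNA. A conserved set of core subunits does the chemistry, and the accessory subunits around them serve assembly and stability. In the colon, absorptive epithelial cells oxidise short-chain fatty acids made by bacteria and depend on the respiratory chain to do so.

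The promoter regions of these genes were searched for sites of the factors classically linked to respiratory chain genes, because the subunits are made in one stoichiometry from genes scattered over the genome. GENCODE M21 placed 37 of the 38 on 15 chromosomes, with 5 on chromosome 17 and 2 on the X chromosome (Ndufa1 and Ndufb11). RefSeq (GRCm38.p6) gave windows from 250 bases before to 50 bases after the transcript start for 34 of the 38, and 4 were not matched. Searched on both strands were GCGCATGCG for Nrf1, CCGGAAGT for the ETS family that includes Gabpa, and AAGATGGCG for Yy1. At least one of these was found in 8 of 34 genes (23.5%), against 7.48% of all 27025 genes with a window. Those 27025 were not limited to genes tested here or to genes as abundant as the subunits. Yy1 letters were in 5 of 34 (14.7%, against 1.64% of all genes), Nrf1 letters in 2 (5.88% against 1.95%) and ETS letters in 1 (2.94% against 4.31%). All 8 matches follow, in order of the diet p-value, with the matched letters in capitals. The sequences are on the transcript's strand, and the rule for named genes took the first 4, with the others added after they were seen.
Ndufs6, Yy1, chr13:73328433-73328459, minus strand: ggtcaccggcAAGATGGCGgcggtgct
Ndufa8, Nrf1, chr2:36049329-36049357, minus strand: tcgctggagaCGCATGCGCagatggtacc
Ndufs7, Yy1, chr10:80249463-80249491, plus strand: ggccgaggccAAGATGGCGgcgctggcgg
Ndufa9, Yy1, chr6:126849097-126849125, minus strand: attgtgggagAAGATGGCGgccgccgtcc
Ndufa11, Nrf1, chr17:56717692-56717721, plus strand: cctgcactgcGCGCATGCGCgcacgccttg
Ndufs3, ETS, chr2:90904704-90904731, minus strand: gcacatttccACTTCCGGtccgtgccct
Ndufs4, Yy1, chr13:114388045-114388069, minus strand: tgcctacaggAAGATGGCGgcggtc
Ndufc1, Yy1, chr3:51408915-51408943, minus strand: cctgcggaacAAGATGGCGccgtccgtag

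The 5 Yy1 matches all began at base 23 to 36 of the transcript and read in the direction of the gene, with an ATG inside the matched letters. Whether the protein begins at that ATG was not tested, and the share over all genes was not limited to genes with an ATG there. The Nrf1 letters of Ndufa11 began 60 bases before the start and matched on both strands, since its capital letters read the same on each, and those of Ndufa8 began 9 bases before it. No 2 different motifs overlapped. A match is a string of letters and not a measured binding site, and no binding data were used.

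Each library held 15652783 to 18341956 reads on genes. Markers of colon epithelium and smooth muscle were present in all 10. Distal colon genes were reduced in pro-inflammatory diet libraries 2 and 5: Hoxb13, the most posterior gene of its cluster, was at 0.417 and 20.9 FPKM there against 211 to 341 FPKM in the other 8. The mean log2(FPKM + 1) of the 5 listed distal colon genes was 0.82 and 1.81 there, against 3.74 to 4.61 in the other 8. The part of this in the subunits' levels was not tested.

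All 38 genes were well expressed, and all passed the filter on low values (a mean of at least 1 FPKM). FPKM counts the fragments on a gene relative to its length and to the size of the library. An order of levels between genes therefore rests on the length given to each. Mean levels over the 10 libraries ran from 24.96 FPKM for Ndufa11 to 297 FPKM for Ndufa6, with a median of 92.9 FPKM against 9.50 FPKM over all 12345 tested genes, and each subunit gene had at least 384 recovered reads in every library. After Ndufa6 the highest were Ndufb9 and Ndufa3, and after Ndufa11 the lowest were Ndufb2 and Ndufs4. Ndufa11 was also the longest of the 38, at 0.786 times the median tested gene, with 916 to 1358 recovered reads per library. Ndufs6, at 0.150 times that gene and means of 96.2 and 119 FPKM on the normal and pro-inflammatory diet, had 763 to 1183. Ndufa6 and Ndufb9, which both bind the mitochondrial acyl carrier protein, were above the FPKM of that protein's gene, Ndufab1, at 40.2 FPKM. Ndufab1 was the longer gene, at 0.647 times the median tested gene against 0.165 and 0.169. Its recovered reads were 1320 to 1781 per library, against 2325 to 3295 for Ndufa6 and 2460 to 3197 for Ndufb9. Within a diet these genes varied little. Their median SD within a diet was 0.086 on the log2(FPKM + 1) scale, and 0.066 for the core subunits, against 0.141 over the 2833 tested genes at or above the level of the lowest subunit. The genes of respiratory complexes II, III, IV and V varied as little, with median SDs of 0.077, 0.071, 0.070 and 0.070. Of the 38 genes, Ndufa12, Ndufa4 and Ndufa1 had the largest SDs (0.277, 0.266 and 0.225).

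On the pro-inflammatory diet, values were higher for 36 of the 38 genes, by a median log2 fold change of 0.14, and no gene passed the adjusted threshold. All log2 fold changes are on the log2(FPKM + 1) scale, pro-inflammatory minus normal diet, from limma with Benjamini-Hochberg adjustment over 12345 genes, called at an adjusted p below 0.05. By this rule 0 of 38 subunits and 0 of 12345 genes were called (0% in either direction), and limma voom on recovered reads also called 0. At an unadjusted limma p below 0.05, 21 of 38 were higher and 0 lower, where 8.16% of all tested genes were higher and 9.25% lower. The share higher was 15.4% of the 2833 tested genes at or above the level of the lowest subunit, and 18.4% of the 450 no longer than the median subunit gene. Below an adjusted p of 0.2, a threshold used here only as an alternative, stood 11 of 38, all higher, against a background of 3.19% higher and 3.78% lower. They were Ndufs8, Ndufs6, Ndufa8, Ndufs7, Ndufs1, Ndufa10, Ndufv3, Ndufa9, Ndufb10, Ndufb7 and Ndufs5. For 9 of 38 genes the 5 values of the pro-inflammatory diet all lay above the 5 of the normal diet, where the background is 1.77%, and for 0 they all lay below, where it is 2.07%. Of the genes as abundant, 4.09% lay above without overlap, and 57.6% had a log2 fold change above 0. This count of 9 was 4 after quantile normalization, against 1.62% of all tested genes, with a median of 0.08. Without pro-inflammatory diet library 2 it was 18, against 2.47%. Over all tested genes 47.1% had a log2 fold change above 0, with a median of -0.01. Ratios of mean FPKM ran from 0.98 for Ndufa1 to 1.27 for Ndufa12, so every difference was small.

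**Figure D1:**
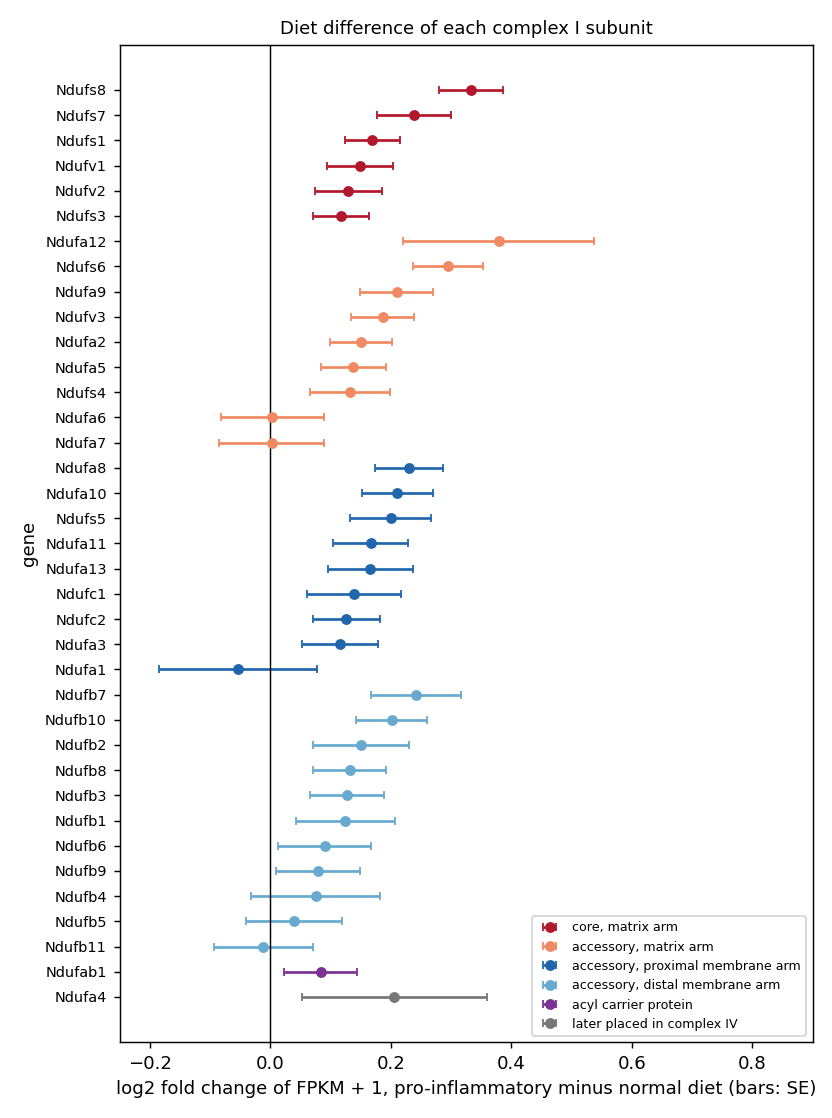
Log2 fold change of FPKM + 1 (horizontal axis, pro-inflammatory minus normal diet, bars are the SE from limma) for 37 of the 38 genes, coloured by place in the complex. The core subunits lie between 0.12 and 0.33, and the genes at or below 0 within their error are accessory subunits such as Ndufa1, Ndufb11, Ndufa6 and Ndufa7.

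These genes are short, and short genes as a whole had higher values on the pro-inflammatory diet. Gene length and log2 fold change had a Spearman's rho of -0.27 across the 12345 tested genes, which share libraries and do not count as replicates. Within the 38 genes the relation had the other sign, at 0.23. The subunit genes had a median length 0.242 times that of all tested genes. The 450 tested genes no longer than the median subunit gene had a median log2 fold change of 0.08, 64.7% of them were higher, and 6.0% lay above without overlap. When each library's trend of level with length was removed, 21 of 38 genes were higher, 3 did not overlap and the median log2 fold change was 0.03 in place of 0.14. Over all tested genes 47.4% were then higher, 1.34% lay above without overlap and the median was -0.01. When the trend was instead taken from each gene's deviation from its own mean, a setting added after the data were seen, 31 were higher, 6 did not overlap and the median was 0.08. Over all tested genes 50.1% were then higher and 1.52% lay above without overlap, with a median of 0.0004. All 7 core subunits, with a median length of 0.475 on the same scale, were higher under both settings, with medians of 0.11 and 0.12, and the lowest of them, Ndufs3, was at 0.01 and 0.05. Of the accessory subunits, 5 of 9 in the matrix arm, 4 of 9 in the proximal arm and 4 of 11 in the distal arm were higher with the trend of levels removed, with medians of 0.07, -0.01 and -0.06. With the trend of deviations removed these counts were 7, 8 and 7, with medians of 0.08, 0.10 and 0.03.

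**Figure D2:**
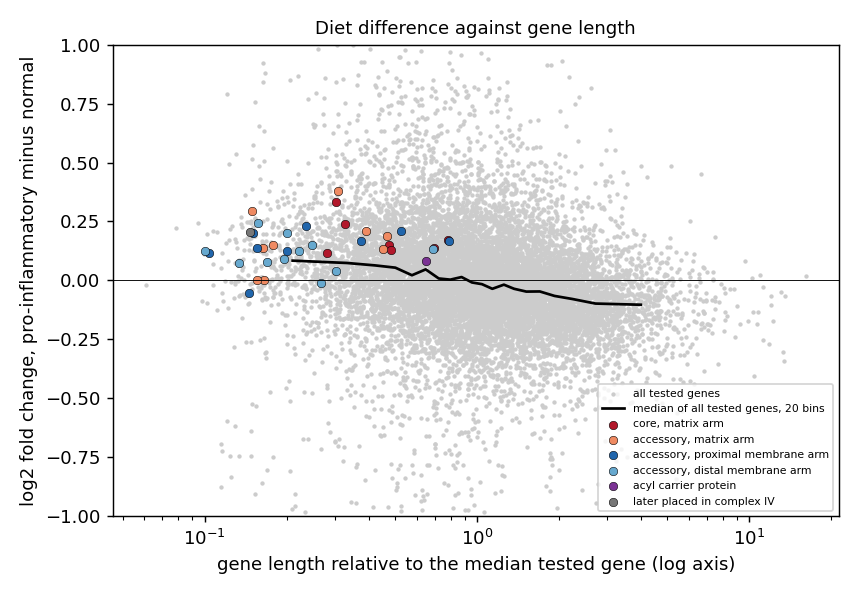
Log2 fold change (vertical axis, pro-inflammatory minus normal diet) against gene length relative to the median tested gene (log axis) for all tested genes in grey and the 38 subunit genes in colour. The black line, the median of all tested genes in 20 length bins, stands at 0.08 in the shortest bin, and the 7 core subunits run from 0.12 to 0.33.

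The core subunits of the matrix arm were all higher. All 7 had an unadjusted limma p below 0.05, 4 of them did not overlap between the diets, and the median log2 fold change was 0.15. Ndufs8, which holds iron-sulfur clusters on the path to ubiquinone (chromosome 19, 3908863 to 3912774, minus strand, GRCm38), was at 67.7, 66.1, 67.8, 65.6 and 67.4 FPKM in normal diet libraries 1 to 5. In pro-inflammatory diet libraries 1 to 5 it was at 83.7, 79.5, 91.6, 79.7 and 88.9 FPKM. Every value of the second diet lay above every value of the first, with a gap larger than the whole range on the normal diet (log2 fold change 0.33, SE 0.05, limma adjusted p = 0.151). Ndufs7, which carries the last cluster before ubiquinone (chromosome 10, 80249121 to 80256794, plus strand), was at 57.0, 53.0, 49.5, 48.1 and 51.7 FPKM on the normal diet and at 61.4, 63.3, 65.6, 59.2 and 57.2 FPKM on the pro-inflammatory diet. Its diets touched without overlapping, at 57.0 and 57.2 FPKM (log2 fold change 0.24, SE 0.06, limma adjusted p = 0.167).

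Ndufs1, which holds several of the clusters near the NADH site, was at 65.9, 64.2, 65.0, 67.6 and 64.7 FPKM on the normal diet and at 73.6, 70.2, 77.7, 73.6 and 73.9 FPKM on the pro-inflammatory diet, with no overlap. Its log2 fold change was 0.17 (SE 0.05, limma adjusted p = 0.173). Ndufv1, the subunit that binds NADH and the flavin, ran from 78.9 to 94.5 FPKM on the normal diet and from 94.8 to 98.6 FPKM on the other, so that its diets were parted by 1 narrow step between normal diet library 1 and pro-inflammatory diet library 1. Its partner Ndufv2 was at 84.7 to 93.2 FPKM against 90.0 to 105 FPKM. Ndufs3, a structural part of the matrix arm, was at 90.0 to 98.6 FPKM against 98.5 to 105 FPKM. Both overlapped between the diets in a single library or a few, and their log2 fold changes were 0.13 and 0.12. With the length trend of levels removed Ndufs8 was at 0.24, Ndufs7 at 0.15, Ndufs1 at 0.15, Ndufv1 at 0.09 and Ndufv2 at 0.07. With that of deviations removed they were at 0.26, 0.17, 0.16, 0.10 and 0.08.

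**Figure D3:**
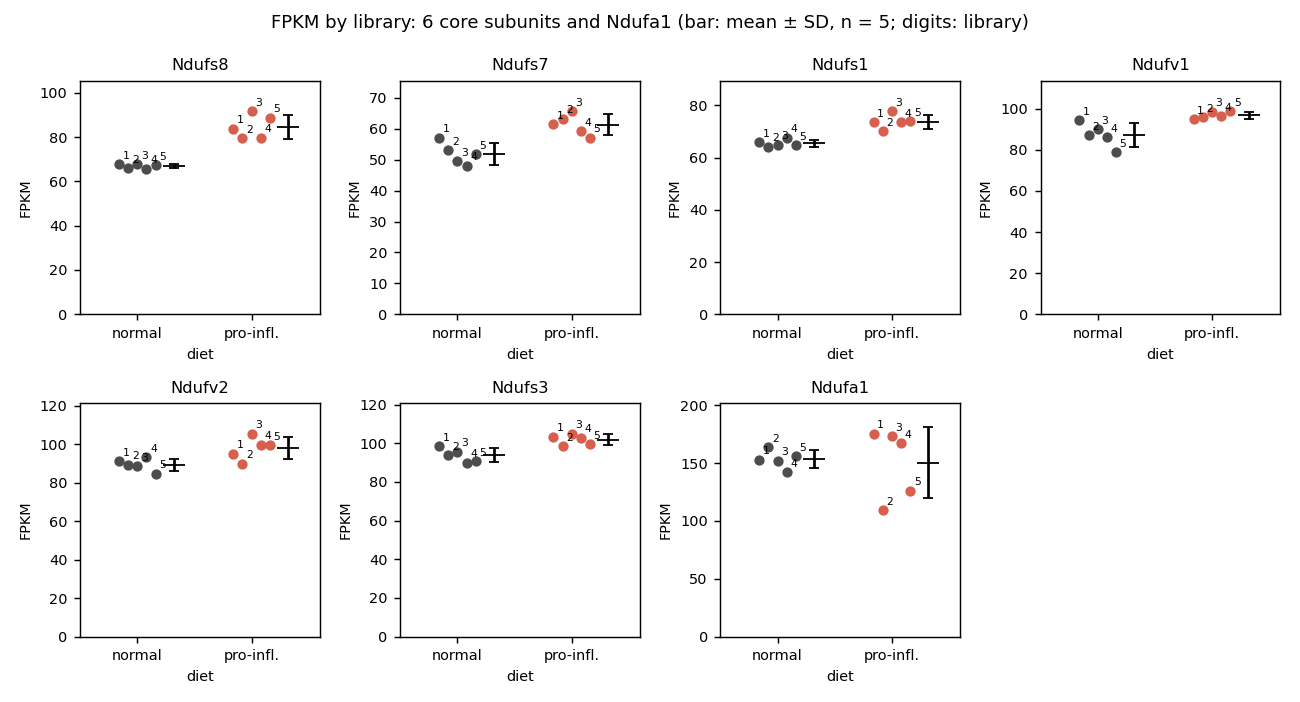
FPKM (vertical axes, from 0) of 6 of the 7 core subunits and of Ndufa1 in each library, numbered by replicate, with the mean ± SD of 5 beside each diet. Ndufs8 shows 2 separate bands at 65.6 to 67.8 and 79.5 to 91.6 FPKM, while Ndufa1 splits within the pro-inflammatory diet.

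Accessory subunits of the matrix arm ranged from the largest difference of all to nearly none. All 9 had a log2 fold change above 0, 6 with an unadjusted limma p below 0.05, and 2 did not overlap. Ndufs6, a zinc-binding subunit next to the NADH-oxidising part (chromosome 13, 73319838 to 73328542, minus strand), was at 93.8 to 100.05 FPKM in the 5 normal diet libraries. It was at 118, 110.0, 127, 110.4 and 127 FPKM in pro-inflammatory diet libraries 1 to 5, above all of them (log2 fold change 0.30, SE 0.06, limma adjusted p = 0.151). Its log2 fold change was 0.09 with the length trend of levels removed and 0.21 with that of deviations removed. A gene named as its copy, Ndufs6b, which can share reads with it, was at 4.93 ± 0.759 against 6.63 ± 0.956 FPKM (SD, n = 5 each). Ndufv3 did not overlap either, at 41.6 to 47.4 against 50.04 to 54.3 FPKM. Ndufa5 was at 98.4 to 109 against 107 to 121 FPKM, Ndufa2 at 79.8 to 90.6 against 90.1 to 97.0 FPKM, and Ndufs4, whose loss in mice serves as a model of Leigh syndrome, at 33.8 to 41.1 against 38.6 to 44.9 FPKM. Ndufa9, which sits where the arms meet, was at 91.3 to 101 FPKM against 100.3 to 118 FPKM, and overlapped by 1 library of each diet. Its log2 fold change was 0.21, or 0.14 and 0.15 with the length trend of levels or of deviations removed.

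Ndufa12 had the largest log2 fold change of the 38 (0.38, SE 0.16, limma adjusted p = 0.26) and is described because its values stood out. It was at 45.0, 41.8 and 52.9 FPKM in normal diet libraries 1, 2 and 3, at 80.2 and 62.9 FPKM in libraries 4 and 5, and at 63.3 to 79.8 FPKM on the pro-inflammatory diet. Libraries 1, 2 and 3 of the normal diet also had the 3 lowest levels of the clock output gene Dbp (1.79 to 6.69 FPKM, against 12.4 to 54.3 in the other 7). In pro-inflammatory diet libraries 1 to 5 Ndufa12 was at 71.6, 72.6, 79.8, 73.1 and 63.3 FPKM, with Dbp at 54.3, 12.4, 33.5, 39.0 and 20.2 FPKM. Without normal diet libraries 1, 2 and 3 the log2 fold change of Ndufa12 was 0.02. They also held its 3 lowest values, so leaving them out was bound to lower the difference. Whether time of day or another feature of these libraries sets the level of Ndufa12 was not tested. Ndufa6 and Ndufa7 had nearly the same mean on both diets, with log2 fold changes that round to 0.00 and SEs of 0.09. Without pro-inflammatory diet libraries 2 and 5 these were 0.13 and 0.11. They were -0.19 and -0.20 with the length trend of levels removed, and both -0.08 with that of deviations removed. Ndufa6 was at 301, 305, 269, 297 and 307 FPKM on the normal diet and at 332, 259.7, 317, 320.2 and 261 FPKM on the pro-inflammatory diet. Its values in pro-inflammatory diet libraries 2 and 5 were below every normal diet value, and those in libraries 1, 3 and 4 above every one.

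In the proximal membrane arm 8 of 9 accessory subunits had a log2 fold change above 0, 6 with an unadjusted limma p below 0.05 and 2 without overlap. Ndufa8, a disulfide-rich subunit facing the intermembrane space (chromosome 2, 36036326 to 36049406, minus strand), was at 97.4 to 105 FPKM on the normal diet. It was at 125, 114, 129, 115 and 111 FPKM on the other (log2 fold change 0.23, SE 0.06, limma adjusted p = 0.166). Its log2 fold change was 0.09 with the length trend of levels removed and 0.15 with that of deviations removed. Ndufa10, a subunit with a nucleoside kinase fold, was at 71.5 to 82.1 against 84.4 to 95.0 FPKM, and its highest value of all was in pro-inflammatory diet library 2, where 23 of the 38 subunits had the lowest value of that diet. Ndufs5, like Ndufa8 a disulfide-rich protein, was at 81.1 to 93.3 against 89.8 to 109.5 FPKM. Ndufa13, also known as Grim19, was at 71.9 to 82.6 against 77.4 to 94.8 FPKM. Ndufa3, the third most abundant of the 38, was at 214 to 237 against 217 to 264 FPKM. Ndufc1 was at 46.4 to 60.03 against 56.3 to 65.3 FPKM and Ndufc2 at 78.4 to 87.1 against 83.4 to 95.1 FPKM, and all of these overlapped apart from Ndufa8 and Ndufa10. Ndufa11 had the lowest level, at 21.96 to 25.6 against 23.6 to 27.8 FPKM.

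Ndufa1, a small membrane-spanning subunit encoded on the X chromosome (37187588 to 37191163, minus strand), had the lowest log2 fold change of the 38. It was at 153, 164, 152, 142 and 156 FPKM on the normal diet and at 175, 109, 173, 167 and 126 FPKM on the pro-inflammatory diet. Libraries 1, 3 and 4 of the second diet lay above every normal diet value and libraries 2 and 5 below every one, so that the mean difference was -0.05 (SE 0.13, limma adjusted p = 0.844). Without libraries 2 and 5 it was 0.17. The other subunit with a log2 fold change below 0, Ndufb11 of the distal arm, is the only other X-linked gene of the set (20615326 to 20617619, minus strand). It was at 103 to 113 FPKM on the normal diet and at 119.9, 92.0, 122, 107 and 97.9 FPKM on the other (-0.01, SE 0.08), and its direction turned under median-of-ratios scaling, to 0.004. The 354 tested X-linked genes had a median log2 fold change of -0.04, against -0.01 over the 12149 tested genes with a position.

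The distal membrane arm, the part farthest from the NADH site, had a median log2 fold change of 0.12 over its accessory subunits. Without pro-inflammatory diet libraries 2 and 5 all 11 were above 0 and the median was 0.20, beside 0.17 for the core, 0.18 for the matrix arm accessory and 0.18 for the proximal arm subunits. With all libraries 10 of the 11 had a log2 fold change above 0, 2 had an unadjusted limma p below 0.05 and 1 did not overlap. The gene without overlap was Ndufb10, at 197 to 208 FPKM on the normal diet and at 236, 220.4, 264, 227 and 224 FPKM on the pro-inflammatory diet (log2 fold change 0.20, SE 0.06, limma adjusted p = 0.177). Its log2 fold change was 0.04 with the length trend of levels removed and 0.12 with that of deviations removed. Ndufb7 was at 99.7 to 126 against 118 to 139 FPKM. Ndufb9, one of the most abundant, was at 256 to 283 against 246 to 304 FPKM, Ndufb4 at 90.6 to 105 against 84.3 to 127 FPKM, and Ndufb5 at 97.0 to 108 against 89.6 to 116 FPKM, each with the wider range on the pro-inflammatory diet. Their log2 fold changes were 0.08, 0.08 and 0.04 with all libraries, and 0.16, 0.24 and 0.15 without pro-inflammatory diet libraries 2 and 5. Ndufb2, low in level, was at 31.5 to 35.6 against 31.3 to 43.1 FPKM. Ndufb1, Ndufb3, Ndufb6 and Ndufb8 had log2 fold changes from 0.09 to 0.13, or from 0.16 to 0.24 without those libraries, and all 4 overlapped between the diets when every library was kept. Ndufb4b and Ndufb4c, named as copies of Ndufb4 that can share reads with it, were at 1.07 to 2.43 and 0 to 0.777 FPKM over the 10 libraries. Whether the arms differ from each other was not tested.

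A pair of genes on the list stands somewhat apart by function. Ndufab1 encodes the mitochondrial acyl carrier protein, which serves fatty acid synthesis as well as both arms of the complex, and was at 35.8 to 41.2 against 37.9 to 44.3 FPKM. Its pseudogene Ndufab1-ps was at 6.72 to 10.5 FPKM. Ndufa4 carries a complex I name but was later placed in cytochrome c oxidase, complex IV, and its values are given because they stood out. It was at 193, 172, 192, 163 and 137 FPKM on the normal diet and at 166, 242, 202, 148 and 242 FPKM on the pro-inflammatory diet. Its 2 highest values were in libraries 2 and 5 of that diet, the same libraries in which Ndufa1, Ndufa6 and Ndufb11 were lowest. Its log2 fold change was 0.21 with all libraries and 0.006 without this pair. Without both genes, 34 of 36 were higher and the median log2 fold change stayed at 0.14.

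Single libraries of the pro-inflammatory diet differed in how far the values stood above the normal diet. In library 3, 37 of the 38 genes lay above all 5 normal diet values, and 30 had their highest value of all 10 libraries there. The count above all normal diet values was 31 in library 4, 30 in library 1, 24 in library 5 and 12 in library 2. In library 2, 9 genes lay below every normal diet value, and 4 did in library 5, whereas none did in libraries 1, 3 or 4. The 9 were Ndufb8, Ndufb2, Ndufb1, Ndufb9, Ndufb5, Ndufa1, Ndufb11, Ndufa6 and Ndufa7, and the 4 were Ndufb4, Ndufa1, Ndufb11 and Ndufa6. Without libraries 2 and 5 of the pro-inflammatory diet, the pair low in distal colon genes, all 38 genes were higher and the median log2 fold change was 0.18. In that setting 26 lay above without overlap, against a background of 5.24%. With the distal colon list as a covariate the median was 0.17 and 37 were higher. None of the 38 passed in either fit.

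**Figure D4:**
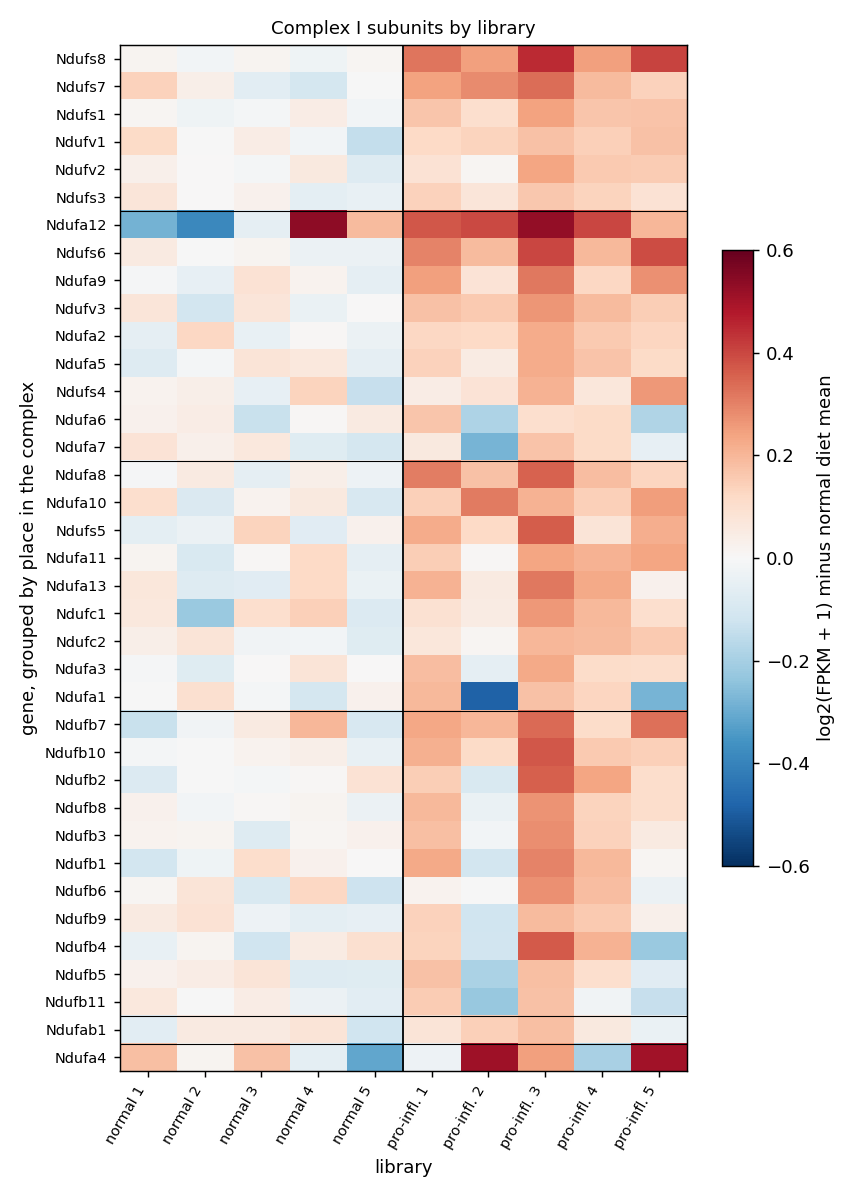
Each cell is a gene's log2(FPKM + 1) in a library minus its mean over the 5 normal diet libraries, with 37 genes grouped by place in the complex and libraries as columns. Pro-inflammatory diet library 3 stands highest, with 37 of 38 genes above all normal diet values, and genes below every normal diet value are found in library 2 (9 genes, such as Ndufa1 and Ndufa7) and library 5 (4 genes, such as Ndufb4).

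Values of the other respiratory complexes were also higher on the pro-inflammatory diet, with no gene past the adjusted threshold. The list level, the mean log2(FPKM + 1) of its genes in a library, was 6.42 to 6.49 for the 38 genes on the normal diet and 6.50 to 6.72 on the pro-inflammatory diet. The levels of complexes II (7.30 to 7.39 against 7.42 to 7.56) and III (7.61 to 7.70 against 7.80 to 7.96) did not overlap either. Nor did that of complex V (7.942 to 8.036 against 8.041 to 8.265), while that of complex IV did (8.43 to 8.53 against 8.48 to 8.68). Complex II had 4 of 4 genes higher with a median log2 fold change of 0.12, complex III 9 of 9 with 0.18, complex IV 9 of 10 with 0.13 and complex V 15 of 15 with 0.16, beside 36 of 38 with 0.14 for complex I. In complexes II to V, 1 of 4, 5 of 9, 3 of 10 and 7 of 15 genes lay above without overlap. In complex I 9 of 38 did, against 1.77% of all tested genes. These values come from the same libraries, and differences between complexes were not tested. Mitochondrial genes outside the respiratory chain, such as those for citrate synthase, import pores and chaperones, were higher in 17 of 18, with a median of 0.09, and 5 had an unadjusted limma p below 0.05. With the level of that list as a covariate, a setting added after the data were seen, 30 of the 38 subunits had a value above 0 and the median was 0.09.

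Assembly factors build the complex and do not stay in it. Of 17 listed, 16 were in the table and tested, 13 were higher, 4 of them with an unadjusted limma p below 0.05, 0 did not overlap, and the median log2 fold change was 0.05. The 4 were Foxred1, at 9.86 to 12.8 against 11.9 to 14.1 FPKM, Ndufaf8, at 20.4 to 26.3 against 24.2 to 33.3 FPKM, Ndufaf2, at 11.0 to 15.7 against 14.2 to 20.3 FPKM, and Ndufaf1, at 9.24 to 12.5 against 11.1 to 13.0 FPKM. Their log2 fold changes were 0.22, 0.25, 0.27 and 0.18, with limma adjusted p from 0.209 to 0.286, and all 4 overlapped between the diets. Transcriptional regulators of mitochondrial genes were split, with 7 of 12 higher, a median log2 fold change of 0.01, and 1 with an unadjusted limma p below 0.05. That was Esrra, the oestrogen-related receptor alpha, at 49.6 to 58.3 FPKM on the normal diet and 55.7 to 62.8 FPKM on the other (log2 fold change 0.18, SE 0.06, limma adjusted p = 0.202). Nrf1 was at 2.06 ± 0.0921 against 2.18 ± 0.186 FPKM (SD, n = 5 each), Gabpa at 13.7 ± 1.22 against 12.5 ± 1.71, Tfam, the mitochondrial DNA packaging factor, at 11.1 ± 0.477 against 12.1 ± 1.18, and the coactivator Ppargc1a at 4.75 ± 1.54 against 4.43 ± 2.05. Ppargc1a was at 2.23 and 2.38 FPKM in pro-inflammatory diet libraries 2 and 5 and at 4.90 to 6.77 in the other 3, and its log2 fold change was -0.13 with all libraries and 0.29 without this pair.

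**Figure D5:**
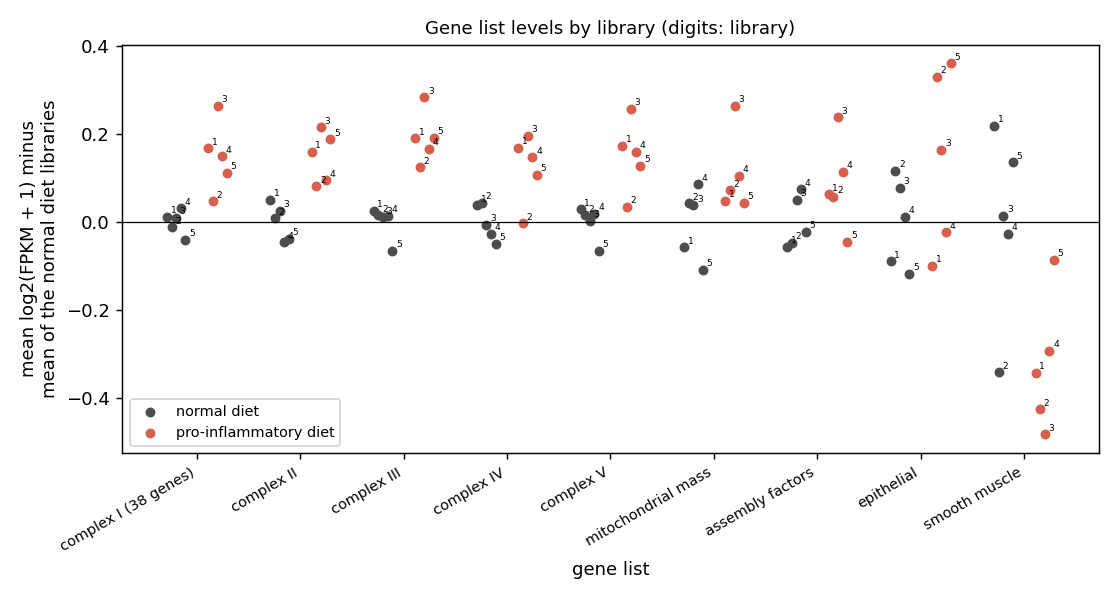
Mean log2(FPKM + 1) of each gene list in each library (vertical axis, minus the mean of the 5 normal diet libraries), with libraries numbered. The complex I level is above every normal diet library in all 5 pro-inflammatory diet libraries (6.50 to 6.72 against 6.42 to 6.49), lowest in library 2. The levels of complexes II, III and V are parted between the diets as well. Those of complex IV, mitochondrial mass, assembly factors, epithelium and smooth muscle overlap.

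Markers of the cell types in the tissue had different values on the diets as well, and none passed the adjusted threshold. In bulk tissue, a different share of cells of a type and a different amount of RNA per cell cannot be told apart. Smooth muscle markers were lower in 13 of 13, 10 of them with an unadjusted limma p below 0.05, and summed to 3125 to 4583 FPKM on the normal and 2724 to 3715 FPKM on the pro-inflammatory diet. Epithelial markers were higher in 10 of 14 and summed to 6894 to 8949 against 8030 to 9531 FPKM. Their list level ran from 8.19 to 8.43 on the normal diet. On the other diet it was highest in the pair low in distal colon genes, at 8.64 (library 2) and 8.67 (library 5). Libraries 1, 3 and 4 of that diet stood at 8.21, 8.47 and 8.29, of which only library 3 lay above the normal diet range. Immune markers were higher in 11 of 11, at 192 to 299 against 221 to 388 FPKM, fibroblast markers in 1 of 7, at 334 to 417 against 241 to 359 FPKM, and enteric neuron and glia markers in 3 of 7, at 22.4 to 34.8 against 16.1 to 33.6 FPKM. Adipocyte markers were higher in 6 of 6 tested, at 37.97 to 76.6 against 46.0 to 209 FPKM, with Adipoq, Plin1 and Lep listed at 0 in at least 1 library. With the smooth muscle minus epithelial level as a covariate 36 of 38 subunits had a log2 fold change above 0, with a median of 0.16, and with the epithelial level alone, added after the data were seen, 38 of 38 with 0.17. Both covariates hold the epithelial level, whose highest values lay in the pair low in distal colon genes. The covariate fits were not tested without that pair. The part of tissue make-up in the subunits' values was not tested further.

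The 8 genes with a promoter match shown above had log2 fold changes from 0.12 to 0.30, with a median of 0.19, and 6 of them had an unadjusted limma p below 0.05 while 3 did not overlap. The 26 with a window but no match ran from -0.05 to 0.38, with a median of 0.13, 12 at an unadjusted limma p below 0.05 and 5 without overlap. Ndufs8 itself held none of the searched letters in its window, and Ndufs6 and Ndufs7 held the Yy1 letters. The mRNA levels of Yy1 and Nrf1 had log2 fold changes of -0.10 and 0.05. This is a description of letters and values, and the difference between these 8 and 26 genes was not tested.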

How the data were processed

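The authors' deposited table gives 1 FPKM value per gene symbol and sample. The submitters' processing notes name Cufflinks, StringTie, HTSeq, DESeq, Bowtie2, HISAT2, Trimmomatic and the build mm10, with no roles. Per the labels' protocols, libraries came from a stranded mRNA kit. No source used here says whether reads were counted by strand. FPKM steps gave whole reads (within 0.01 read) for 18398 of 18398 genes, 15652783 to 18341956 per library, and gene lengths relative to each other. Library correlations ran from 0.911 to 0.992, and no library was a copy of another (lowest chi-square per gene 12.8).

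The test was limma 3.58.1 (R 4.3.3; eBayes with trend) on log2(FPKM + 1), over the 12345 genes with a mean of at least 1 FPKM. The fit was tested on simulated data first. Figures used matplotlib 3.10.9. Alternatives changed pseudocount, filter, scaling, variance model, weights, threshold, covariates, length trend and libraries. Genes given by library were the core subunits, those without overlap, the highest and lowest 3, those below 0, 4 assembly factors and 5 regulators. Subunits and lists were chosen with earlier results of these data known. Ndufb1 was put among the distal arm genes after the table was seen. The values of 1 core subunit are not reported here; it remains in the counts and medians.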

Additional observations from a re-analysis of the deposited data

Results flagged for a closer look

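Of 76 sets of 5 values, 38 genes on each diet, 2 held a library far from the other 4, where chance gives about 1 in 20. In normal diet library 3, Ndufb3 was at 70.1 FPKM, with the nearest other value at 74.6, a gap of 0.874 of the whole range. In the same library Ndufa6 was at 269 FPKM, with the nearest other at 297, a gap of 0.734 of the range. The limit for 5 samples is 0.71.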

How the results depend on the processing

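No subunit or other named gene had an adjusted p below 0.05 under any setting tried. Over the settings that can move a fold change, directions held in 715 of 754 comparisons of a named gene with an alternative. Part of this count was fixed in advance. The named genes included the 9 subunits without overlap, whose direction cannot change when libraries are only left out. The samples share only a number: deviations of same-numbered libraries correlated from -0.26 to 0.06, and with the number as a replicate block 0 subunits were called, 36 were higher and the median log2 fold change was 0.14. Leaving out 1 library at a time gave 34 to 38 higher, 9 to 18 without overlap (18 without pro-inflammatory diet library 2) and medians of 0.12 to 0.16. Over all tested genes 1.95% to 4.94% lay above without overlap in these fits, and 2.47% without pro-inflammatory diet library 2. The count without overlap was 4 with quantile normalization (background lying above 1.62%) and 3 with the length trend of levels removed (1.34%). It was 26 without pro-inflammatory diet libraries 2 and 5 (5.24%) and 15 without normal diet libraries 1, 2 and 3 (4.80%). A covariate, block or weight leaves that count as it is. With the length trend of levels removed 21 were higher, against 47.4% of all tested genes, with a median of 0.030. At a threshold of 0.2, 11 subunits and 861 genes were called. Over all genes 1 was called with the distal colon covariate (Kyat1) and 1 with the clock covariate (Chit1).

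Log2 fold changes near 0 changed sign. Ndufb11 was at 0.0040 with median-of-ratios scaling, 0.033 with array weights, 0.10 without pro-inflammatory diet libraries 2 and 5, 0.040 without normal diet libraries 1, 2 and 3, 0.039, 0.082 and 0.056 with the muscle minus epithelial, distal colon and epithelial covariates, and -0.059 to 0.042 leaving out 1 library. Ndufa1 was at 0.068 with array weights, 0.17 without libraries 2 and 5, 0.058, 0.15 and 0.092 with those covariates, and -0.11 to 0.055 leaving out 1. Ndufa6 was at -0.069 with quantile normalization, -0.028 without normal diet libraries 1, 2 and 3, -0.052 with the clock and -0.020 with the mitochondrial mass covariate, -0.0065 without pro-inflammatory diet library 3 and normal diet library 5, -0.19 and -0.079 with the length trend of levels or of deviations removed, and -0.037 to 0.051 leaving out 1. Ndufb9 was at -0.11 and -0.0032 with the length trend of levels or of deviations removed. Ndufa3 was at -0.16 with that of levels removed, and kept its sign at 0.025 with that of deviations removed. Ppargc1a was at 0.17 with array weights, 0.29 without libraries 2 and 5, 0.44, 0.30 and 0.30 with the 3 covariates named for Ndufb11, and -0.28 to 0.034 leaving out 1, and Nrf1 at -0.023 with the first of them. The cause of these changes was not tested.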
